A study of Mus musculus with 8 samples.

Results

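Transcripts of AMPK subunits and of the kinases upstream of AMPK were followed at their 3′ ends in gastrocnemius, a mixed calf muscle, from mice without AMPKα1 or AMPKα2 (knockout, KO) and from wild-type (WT) mice. The genes were the catalytic subunits Prkaa1 (AMPKα1) and Prkaa2 (AMPKα2), the scaffold subunits Prkab1 and Prkab2, the nucleotide-binding subunits Prkag1, Prkag2 and Prkag3, the upstream kinases Stk11 (LKB1) and Camkk2, and Cab39 (MO25α), which binds LKB1 in its active complex. Members were taken by symbol, so all polyadenylation sites (alternative polyadenylation sites, APSs) that the deposited table assigns to these symbols were used. This gave 41 of 56483 APSs and 10 of 15378 genes. The 10 genes held 16864 reads over the 8 libraries.

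Each of the 4 groups, AMPKα1 KO, AMPKα1 WT, AMPKα2 KO and AMPKα2 WT, had 2 mice with 1 whole transcriptome termini site sequencing (WTTS-seq) library per mouse, and WTTS-seq reads the 3′ ends of polyadenylated RNA. The KO mice were AMPKα1-/- or AMPKα2-/-, each with a deletion in the part of the gene that codes for the catalytic domain. The age was near 6 weeks for AMPKα1 KO and near 8 weeks for AMPKα2 KO, while the methods of the study give none for WT. The labels give C57BL/6 and adult for all mice, whereas the methods name another inbred strain for the AMPKα1 KO mice. Whether AMPKα1 KO and AMPKα1 WT mice differ in strain cannot be told from these, and an effect of strain could not be told apart from that of the deletion. No treatment is given in the labels, and p-values measure the spread between 2 mice per group.

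AMPK is a heterotrimer of an α, a β and a γ subunit. It is switched on when AMP or ADP binds the γ subunit and when LKB1, or CaMKK2 in response to calcium, phosphorylates the activation loop of the α subunit. In skeletal muscle, α2-containing complexes and the γ3 isoform, which is typical of fast glycolytic fibres, are known to take part in the response to contraction.

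The libraries held 2311242 to 3549156 counted reads. In AMPKα2 libraries, the 10 APSs with the most reads took 40.1% to 50.5% of the reads, against 16.7% to 22.3% in AMPKα1 libraries, and TMM factors, which scale libraries to a common level over most genes, were 0.403 to 0.624 in AMPKα2 and 1.53 to 2.14 in AMPKα1 libraries. The biological coefficient of variation of genes, the relative spread between mice beyond counting, was 104% among AMPKα1 libraries and 26.2% among AMPKα2 libraries. Among genes with at least 50 reads in 1 AMPKα1 KO library, 11.9% had no read in the other, against 1.51% for AMPKα1 WT, 0.0734% for AMPKα2 KO and 0.0605% for AMPKα2 WT. All 10 fast fibre markers were detected, including the fast myosin Myh4 and the muscle creatine kinase Ckm, with a summed level of 40565 to 154766 CPM, the read count scaled to a common library size. Intervals and floors from counts cover counting error only, since PCR copies of a molecule were not marked.

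The members had 1 to 7 APSs each. By the GENCODE vM21 annotation of GRCm38, 19 of the 41 APSs lay in 3′ UTRs and held 80.3% of the reads, 4 lay downstream of the gene (11.9%), 13 in introns (4.90%), 3 were antisense (1.71%), 1 lay in a coding exon (0.955%) and 1 in the last exon of another transcript. For 9 of the 10 genes, an APS lay within 11 bases of the annotated end of the gene, and at 6 genes this was the APS with the most reads. Prkaa1 had none. The bases before the main APSs are shown because they separate ends with the polyadenylation signal AATAAA or ATTAAA from ends with neither. Other polyadenylation signals were not searched, so an end with neither may still hold a signal. Each window runs 5′ to 3′ for 30 bases on the strand of the gene and ends at the APS (or at the annotated end, where the APS lies just past it), and capitals mark the signal AATAAA or, where absent, ATTAAA.
Prkaa2, chr4:105029876-105029905, minus strand: gtcttttgtttcAATAAAtattgttattca
Prkaa2 exon 2, chr4:105075473-105075502, minus strand: cagaagattcgcagtttagatgttgttgga
Prkab1, chr5:116013590-116013619, minus strand: tttcAATAAAgctttgtaaaaattactgga
Prkab2 annotated end, chr3:97673783-97673812, plus strand: tgtttAATAAAaagcattatgcagcaataa
Prkab2 main APS, chr3:97673043-97673072, plus strand: cagtgaacaaacatgtttggagtaaaaaaa
Prkag1, chr15:98812797-98812826, minus strand: ctaATTAAAtgacaaggtttcatcatggta
Prkag3 annotated end, chr1:74738922-74738951, minus strand: gtggtccaatgaagaaagagtggattcata
Prkag3 main APS, chr1:74739416-74739445, minus strand: ggaaggaaggaaggaaggaaggaaggaaga
Stk11, chr10:80130651-80130680, plus strand: ggcaataAATAAAgcttgggaaacttgaag
Camkk2 main APS, chr5:122733203-122733232, minus strand: agctaagctaattctctttgtaaattggca
Camkk2 annotated end, chr5:122731172-122731201, minus strand: cttgaAATAAAcagacagcaaaatggtgca
Cab39, chr1:85851547-85851576, plus strand: ttaaattaaAATAAAattttggagaaactg

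Of the 9 windows at an annotated end, not all of which are printed, 7 held AATAAA and 1, that of Prkag1, held ATTAAA, while the Prkag3 end held neither. Of all 23 member windows, at annotated ends or elsewhere, 8 held AATAAA, 3 held ATTAAA without it and 12 held neither. Over 19320 exonic APSs of the series, 31.3% of such windows held AATAAA, 10.6% held ATTAAA and 59.3% neither. Those APSs were not limited to annotated ends, so they are no background for the 9 windows. The letters were searched on the strand of the gene, and a window can hold both signals. An A-rich stretch, meaning 7 As in a row or 8 As in 10 bases within the 30 bases after the APS, could be searched at 14 of the 41 APSs and was found at 6, against 23.1% of 13589 exonic APSs. Those 6 APSs held 48.4% of the reads of the 10 genes. They include the main APSs of Prkab2 (10 As in the 10 bases after it), Prkag3 (8 As) and Camkk2 (10 As), and none of these 3 windows held either signal. Whether reads at such APSs start in the poly(A) tail or in the A-rich stretch of the transcript was not tested. No APS of Prkaa1, Prkab1, Prkag1, Prkag2 or Stk11 could be searched. All of their APSs were therefore kept wherever APSs before A-rich stretches were left out.

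**Figure D1:**
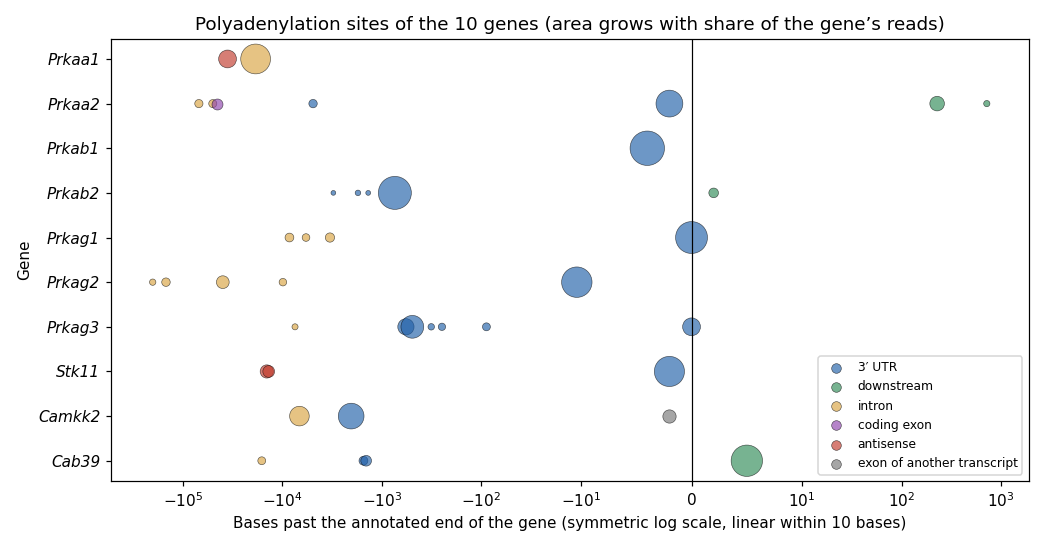
Position of the 41 APSs of the 10 genes, in bases past the annotated end of the gene on a symmetric log scale that is linear within 10 bases, with colour for the annotated location and area growing with the share of the gene's reads. There are 9 genes with an APS at or next to 0, while both Prkaa1 APSs lie 18537 bases or more before the end and the largest Prkab2 and Camkk2 circles lie 740 and 2033 bases before it.

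Of the genes targeted in the study, Prkaa1 was hardly seen. Its intron 2 APS (chr15:5163362, plus strand) had 0 reads in AMPKα1 KO 1, 82 in the library labelled AMPKα1 KO 2, 15 in AMPKα1 WT 1 and 0 in AMPKα1 WT 2, and 0, 0, 1 and 1 reads in AMPKα2 KO 1, KO 2, WT 1 and WT 2. The other APS (chr15:5146418) lies antisense in intron 1 and had 10, 8, 14 and 2 reads in the AMPKα2 libraries in the same order and 0 in each AMPKα1 library. Thus only 1 AMPKα1 KO library had reads, and it had more than either WT library. No APS of any gene lay on the strand of Prkaa1 within 5000 bases of its annotated end, so the mature Prkaa1 message was not measured at its 3′ end. Both APSs lie within the genomic span of the coding stretch that the study describes as deleted. The 82 reads in the library labelled AMPKα1 KO 2 therefore go against that label if the whole span was removed, and the AMPKα1 fold changes of members are also given without this library where they are described further. A count of 0 in AMPKα1 KO 1 allows up to 3 reads, or 0.470 CPM after TMM scaling.

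Prkaa2, the catalytic isoform known to predominate in skeletal muscle, had 7 APSs. In the AMPKα2 KO libraries its level was 47.0 and 53.2 CPM and in AMPKα2 WT 47.0 and 54.7 CPM, so the groups overlapped. Its 4 APSs downstream of the deleted coding stretch had 19 and 35 reads in AMPKα2 KO 1 and 2 and 53 and 33 reads in AMPKα2 WT 1 and 2, or 24.3 ± 2.77 CPM and 28.9 ± 0.326 CPM (SD, n = 2), and the 3 APSs upstream of it had 25.8 ± 1.63 CPM and 22.0 ± 5.10 CPM. Reads at these APSs lie outside the deleted stretch, so they check nothing about the genotype, and RNA ending at the annotated 3′ end of Prkaa2 was counted in both AMPKα2 KO libraries.

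The levels below are CPM after TMM scaling over all 8 libraries. Levels of different genes were compared without dividing by length, on the premise that each transcript gives 1 end. Reads that start in an A-rich stretch inside a transcript would go against this premise, which was not tested. In bulk tissue, fewer cells of a type and less RNA per cell cannot be told apart. With all APSs summed, Prkab2 was the member with the highest level in every library, at 195 to 347 CPM. Most of its reads lie before an A-rich stretch. Without APSs before A-rich stretches, it had fewer reads than Prkag3 in every library. For example, it had 11 against 278 in the library labelled AMPKα1 KO 2 and 76 against 110 in AMPKα2 WT 1. For Prkab2 with all APSs, the AMPKα1 WT libraries (323 and 347 CPM) stood above AMPKα1 KO (210 and 224 CPM). They also stood above AMPKα2 KO (203 and 200 CPM) and AMPKα2 WT (195 and 205 CPM). Prkab1, the partner isoform of Prkab2, was among the lowest, at 0 to 14.5 CPM. In AMPKα2 WT, the order was Prkab2 (200 ± 6.73 CPM, SD, n = 2), Prkag3 (98.6 ± 4.08), Prkaa2 (50.9 ± 5.42), Prkag1 (46.8 ± 14.9), Stk11 (45.0 ± 3.70), Cab39 (37.4 ± 7.01), Camkk2 (14.4 ± 2.06), Prkag2 (7.14 ± 1.37), Prkaa1 (5.38 ± 3.86) and Prkab1 (4.44 ± 2.46). In that group, the ranges of Prkab2 and Prkag3 did not overlap with those of their neighbours, the ranges from Prkaa2 down to Cab39 overlapped from neighbour to neighbour, Camkk2 stood apart on both sides, and Prkag2, Prkaa1 and Prkab1 overlapped.

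In AMPKα1 WT, Prkab2 (335 ± 17.5 CPM, SD, n = 2) was again apart from the second gene, Prkag3 (108 ± 47.0 CPM), and Camkk2 (4.09 ± 0.342 CPM) and Prkaa1 (2.16 ± 3.06 CPM) were lowest. In AMPKα1 KO, Prkag2 (64.4 ± 6.75 CPM) overlapped with Prkag3 (64.9 ± 0.412 CPM) and Prkaa2 (66.7 ± 31.6 CPM) behind Prkab2 (217 ± 10.1 CPM). In AMPKα2 KO, Prkag2 (5.56 ± 0.444 CPM) ranked below Prkaa1 (8.88 ± 4.07 CPM). Levels were not compared between models by a test. The models differ in library set and in the deletion and age of the KO mice, and may differ in strain and in the age of the WT mice. Levels also turn on the scaling: mean Prkab2 was 1.68 times higher in AMPKα1 WT than in AMPKα2 WT with TMM factors and 5.04 times higher by library totals, and for Camkk2 these ratios were 0.283 and 0.847.

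**Figure D2:**
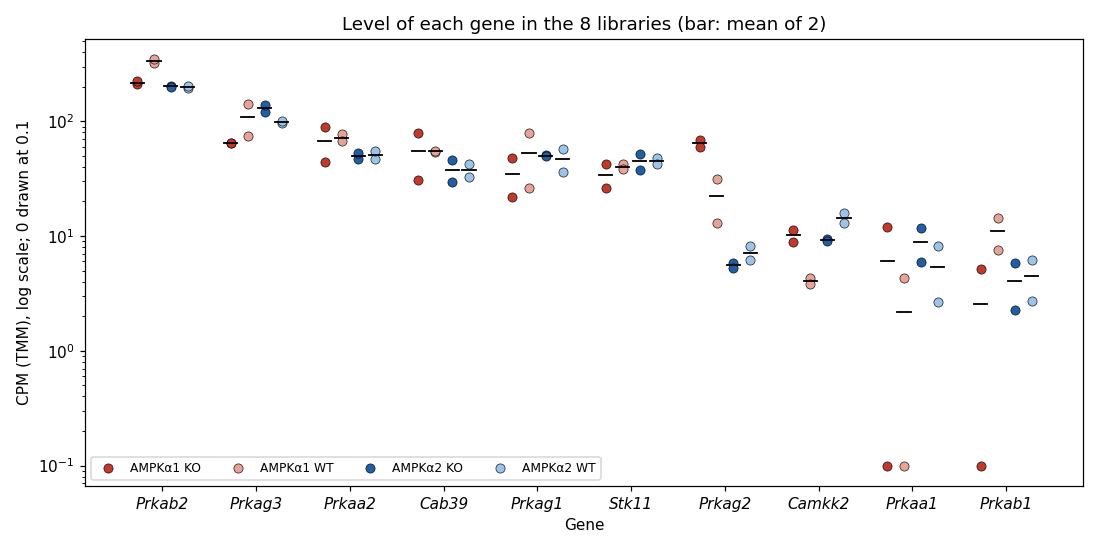
CPM after TMM scaling (log axis, 0 drawn at 0.1) of the 10 genes in the 8 libraries, ordered by the mean over all libraries, with points for libraries and bars for group means of 2. With all APSs summed, including those before A-rich stretches, Prkab2 lies at 195 to 347 CPM in every library. Prkag2 lies at 59.6 and 69.2 CPM in AMPKα1 KO and at 5.25 to 8.11 CPM in the AMPKα2 model.

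Within each subunit class, shares of reads do not depend on the scaling of libraries. Among α subunits, Prkaa2 took 100%, 78.6%, 94.7% and 100% of the reads in AMPKα1 KO 1, the library labelled AMPKα1 KO 2, AMPKα1 WT 1 and AMPKα1 WT 2. It took 80.0%, 89.9%, 85.3% and 95.4% in AMPKα2 KO 1, KO 2, WT 1 and WT 2, where the class held only 50 to 102 reads (95% Clopper-Pearson interval of the first share, 66.3% to 90.0%). KO and WT shares overlapped in both models. When antisense APSs were left out, the mean share of Prkaa2 was 100% in AMPKα2 KO and 98.6% in AMPKα2 WT, so almost all Prkaa1 reads of that model came from the antisense APS. Prkaa1 has no APS in exons or downstream, so with such APSs only, Prkaa2 made up the class in every library by construction. No 3′ end of the mature Prkaa1 message was counted, so these shares do not measure α1 against α2 message.

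Among β subunits, Prkab2 took 96.0% to 100% of the reads in all 8 libraries, with 98.9% ± 1.59 in AMPKα1 KO and 96.9% ± 1.22 in WT, and 98.0% ± 1.201 in AMPKα2 KO and 97.9% ± 1.11 in WT (SD, n = 2). The share rests on the Prkab2 APS 740 bases before the annotated end (chr3:97673072), which held 91.8% of the gene's reads and lies before an A-rich stretch. Without the APSs before A-rich stretches, Prkab2 still held 88.1% to 93.8% of the class in AMPKα2 libraries. In the AMPKα1 model it then held 82.2% and 64.1% in WT, 100% in KO 1 and 23.9% in the library labelled AMPKα1 KO 2, where 11 Prkab2 reads faced 35 of Prkab1 (95% Clopper-Pearson interval 12.6% to 38.8%). This exclusion was chosen after the sites were seen. The Prkab1 APS could not be searched for an A-rich stretch, so the exclusion could not raise the Prkab2 share.

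Among γ subunits, Prkag3 (γ3) was the largest in 7 of 8 libraries. Its main APS lies before an A-rich stretch, and without such APSs it was the largest in 5 of 8, behind Prkag2 in both AMPKα1 KO libraries (45.8% and 48.7% for Prkag2) and behind Prkag1 in AMPKα1 WT 1 (53.7% for Prkag1). No APS of Prkag1 or Prkag2 could be searched for such a stretch. The exclusion could therefore only lower the Prkag3 share, and it cannot decide which γ isoform was largest. With all APSs, Prkag3 took 68.2% and 71.6% of γ reads in AMPKα2 KO and 68.3% and 61.5% in AMPKα2 WT, followed by Prkag1 (25.7% to 34.8%) and Prkag2 (2.72% to 5.79%). In AMPKα1 WT libraries, Prkag3 took 60.6% and 56.6%, Prkag1 33.9% and 19.8%, and Prkag2 5.56% and 23.6%. In AMPKα1 KO libraries, Prkag2 took 38.1% in KO 1 and 40.6% in the library labelled AMPKα1 KO 2, against 35.6% and 44.4% for Prkag3. Thus both AMPKα1 KO libraries had a higher Prkag2 share and a lower Prkag3 share than either AMPKα1 WT library, and the lower Prkag2 share of AMPKα2 KO (3.02% ± 0.415 against 4.77% ± 1.45, SD, n = 2) rests on 5 and 7 reads in KO against 15 and 7 in WT. Both of these γ shares did not overlap between KO and WT in AMPKα1. The Prkab2 share of β reads was barely apart, at 97.76% in the library labelled AMPKα1 KO 2 against 97.73% in AMPKα1 WT 1. Without APSs before A-rich stretches, the Prkab2 share overlapped. The mean difference in AMPKα1 was 24.8 percentage points for Prkag2 and -18.6 for Prkag3, each with an exact two-sided permutation p of 0.333, the smallest that 2 mice against 2 can give. The 10 share comparisons, 5 isoforms in 2 models, gave exact p-values of 0.333 to 1, so no adjustment could bring any below a threshold.

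**Figure D3:**
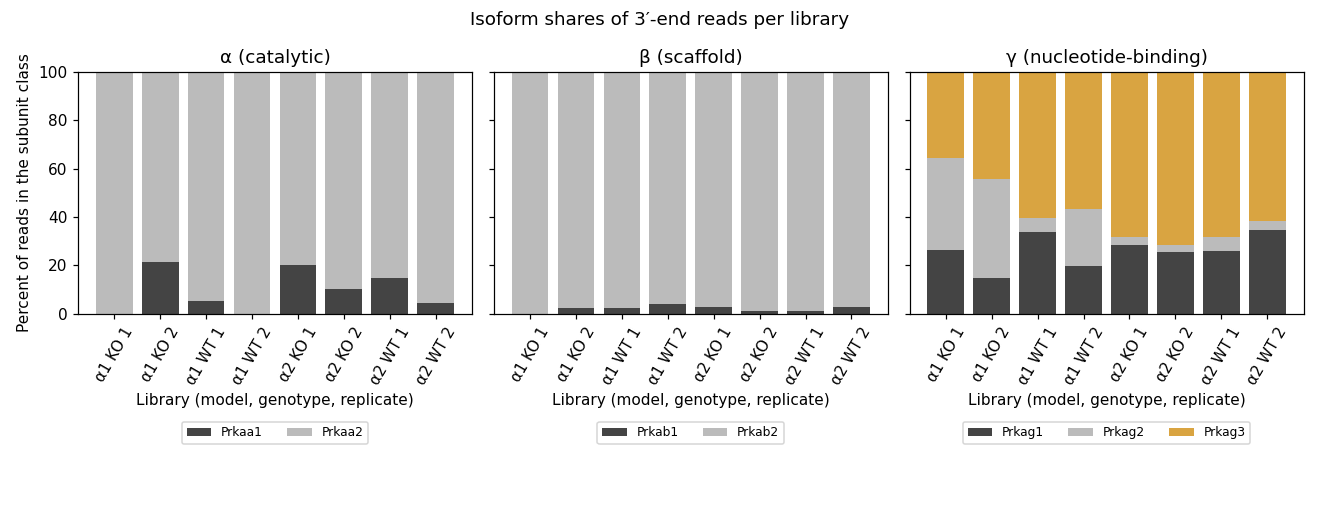
Percent of the reads of each AMPK subunit class taken by each isoform in each of the 8 libraries (model, genotype, replicate). Prkab2 fills 96.0% or more of every β bar, and the Prkag2 segment spans 38.1% and 40.6% in AMPKα1 KO and 23.6% or less in all other libraries.

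KO was compared with WT within each model over all genes by edgeR's quasi-likelihood test at a Benjamini-Hochberg adjusted p under 0.1, with positive log2 fold changes for genes higher in KO. No member passed in either model. In simulated counts with planted 16-fold changes, this test recovered 117 of 200 changed genes in AMPKα1 and 200 of 200 in AMPKα2. The changes were planted only in genes with many reads. Prkaa1 in AMPKα1, and Prkaa1, Prkab1, Prkag2 and Camkk2 in AMPKα2, had fewer reads than any of these genes. Recovery was therefore not measured for members with so few reads, nor for smaller changes. In AMPKα1, 0 of 10 members were called against 0 of 13941 genes (0%), with 587 genes at an unadjusted p under 0.05 by edgeR and 124 genes called by DESeq2, none of them a member. In AMPKα2, 0 of 10 were called against 72 of 10552 genes (0.682%), with 902 genes at an unadjusted p under 0.05 and 82 called by DESeq2, again without a member. Prkag2 was the 1 member that had an unadjusted p under 0.05 in AMPKα1, and 0 members had one in AMPKα2. In AMPKα1, 3 members had a log2 fold change above 0, and in AMPKα2 4 did, with member medians of -0.21 and -0.01 beside -0.03 and -0.01 over all genes tested.

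For the isoform not targeted, the intervals were unequal. Prkaa2 in AMPKα1 had 89.1 and 44.3 CPM in KO and 77.1 and 67.2 CPM in WT, a log2 fold change of -0.15 (SE 0.49, 95% interval -1.33 to 1.03). Prkaa1 in AMPKα2 had 11.8 and 6.00 CPM in KO and 8.11 and 2.65 CPM in WT, nearly all antisense, a log2 fold change of 0.56 (SE 0.67, 95% interval -0.91 to 2.02). Neither passed the test, and Prkaa2 changes within its interval could not be told from none. The Prkaa1 interval describes mainly antisense RNA, so it can show neither a rise of the Prkaa1 message nor the lack of one. The Prkaa2 value in AMPKα1 was 0.24 without the library labelled AMPKα1 KO 2.

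In the AMPKα2 model the scaffold and γ subunits with many reads were held to narrow intervals. Prkab2 had a log2 fold change of -3.8e-05 (95% interval -0.51 to 0.51), Prkag1 one of 0.10 (-0.60 to 0.79) and Prkag3 one of 0.38 (-0.16 to 0.92). Stk11 and Cab39, the LKB1 kinase and its scaffold, had log2 fold changes of -0.02 (-0.68 to 0.65) and 0.02 (-0.71 to 0.76). None of these 5 intervals reached 1 on the log2 scale in either direction. For Stk11, 2 antisense APSs held 13.4% and 10.3% of the reads over the 8 libraries, so its levels and interval do not describe LKB1 message alone.

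In the AMPKα1 model the member with the lowest p-value was Prkag2. It had 69.2 CPM in KO 1 and 59.6 CPM in the library labelled AMPKα1 KO 2, and 13.0 and 31.2 CPM in WT, so the groups did not overlap. The log2 fold change was 1.502 (SE 0.58, 95% interval 0.09 to 2.92, unadjusted p = 0.040, adjusted p = 0.763 by edgeR), and it was 1.58 without the library labelled AMPKα1 KO 2. Over all alternatives, it stayed above 0, between 1.01 and 2.31, with adjusted p-values of 0.294 to 0.999. Its reads were mostly at the annotated 3′ end, with 401 and 247 in KO and 41 and 164 in WT. With exon or downstream APSs only, the log2 fold change was 1.44. A single intronic APS (chr5:24872606, intron 11) had 37 reads in AMPKα1 KO 1 and none elsewhere, and another (chr5:24902354, intron 5) had 109 reads in the library labelled AMPKα1 KO 2 and 0 to 23 in the other 7.

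Prkab2 in AMPKα1 had log2 fold change -0.66 (SE 0.35, 95% interval -1.502 to 0.19) and Prkag3 had -0.77 (SE 0.47, 95% interval -1.91 to 0.37), with adjusted p = 0.763 for both by edgeR. Without the library labelled AMPKα1 KO 2, these values were -0.74 and -0.81. The Prkag3 value turned more on the WT libraries, at -0.23 without AMPKα1 WT 1 and -1.12 without AMPKα1 WT 2. Prkag3 had 64.6 and 65.2 CPM in KO against 141 and 74.9 CPM in WT. Prkab1 had 0 and 35 reads in KO against 26 and 94 in WT, with a 95% interval of the log2 fold change of -7.01 to 2.83. Without the library labelled AMPKα1 KO 2, Prkab1 had no read in KO (unadjusted p = 0.0055, adjusted p = 0.388 by edgeR). Prkag1, the widely expressed γ1 subunit, had 47.7 and 22.0 CPM in KO against 79.1 and 26.2 in WT, so its groups overlapped. Stk11 was at 42.02 and 26.3 CPM in KO against 42.1 and 38.2 in WT, and Cab39 at 79.5 and 30.5 against 54.3 and 55.1, so both overlapped.

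**Figure D4:**
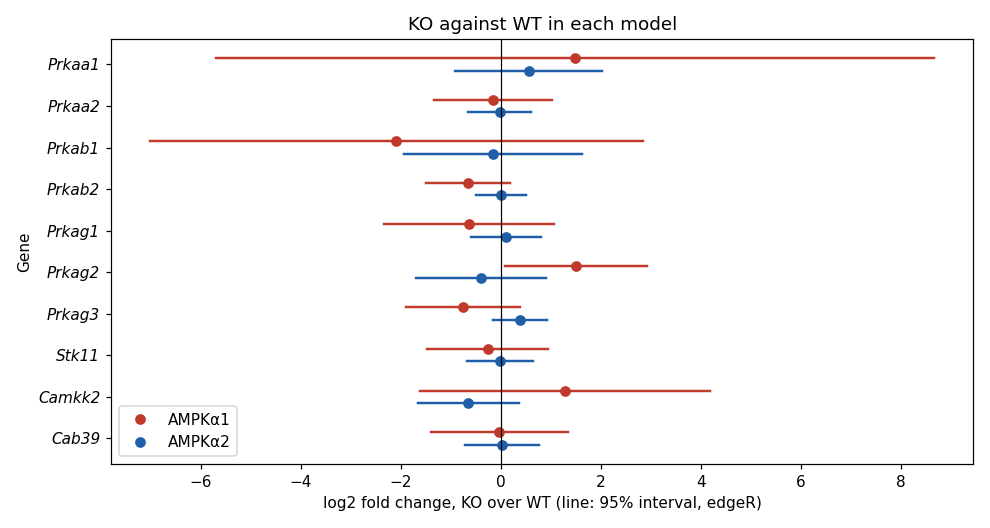
Log2 fold change of KO over WT for the 10 genes in the AMPKα1 (red) and AMPKα2 (blue) models, with lines for 95% intervals from edgeR's quasi-likelihood fit. All intervals include 0 except that of Prkag2 in AMPKα1 (0.09 to 2.92), and those of Prkaa1 and Prkab1 in AMPKα1 are the widest.

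Camkk2, the calcium-dependent upstream kinase, was at 8.94 and 11.3 CPM in AMPKα1 KO and 4.33 and 3.85 CPM in WT, but at 9.40 and 8.999 CPM in AMPKα2 KO and 13.0 and 15.9 CPM in WT. It was thus higher in KO than in WT without overlap in AMPKα1 and lower without overlap in AMPKα2. Its log2 fold changes were 1.28 (SE 1.21, adjusted p = 0.908 by edgeR) and -0.65 (SE 0.46, adjusted p = 0.733), and the first was 1.06 without the library labelled AMPKα1 KO 2. An intron 14 APS held 6 of 57 and 43 of 77 reads in AMPKα1 KO, 6 of 15 and 18 of 25 in AMPKα1 WT, and 0 to 1 reads in the AMPKα2 libraries. Prkag2 had the same pattern, with 5.88 and 5.25 CPM in AMPKα2 KO and 8.11 and 6.18 CPM in WT. Prkag3 had the opposite pattern, lower in AMPKα1 KO and higher in AMPKα2 KO (121 and 138 CPM against 95.7 and 101 CPM). In AMPKα1, 5 of 10 members did not overlap (Camkk2 and Prkag2 higher, Prkab1, Prkab2 and Prkag3 lower in KO) against 32.4% of 13941 genes, and in AMPKα2 3 of 10 against 39.6% of 10552 genes. Opposite patterns were found in 3 of 10 members against 6.61% of 9419 genes tested in both models, and patterns in the same direction in 0 of 10 against 7.57%. By library totals, Prkag3 overlapped in AMPKα2, which left Prkag2 and Camkk2.

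The difference between the KO effects was tested as an interaction over all 8 libraries. As the log2 effect in AMPKα2 minus that in AMPKα1, it was -1.91 for Prkag2 (SE 0.81, 95% interval -3.72 to -0.10, unadjusted p = 0.040, adjusted p = 0.696 by edgeR), -1.95 for Camkk2 (SE 1.00, adjusted p = 0.757) and 1.13 for Prkag3 (SE 0.53, adjusted p = 0.728). The Prkag3 value was 0.53 without AMPKα1 WT 1 and 1.53 without AMPKα1 WT 2. No member passed, against 10 of 15378 genes (0.065%). Without the library labelled AMPKα1 KO 2, Prkab1 alone passed (log2 7.90, adjusted p = 0.097), which sets a lone AMPKα1 KO library with 0 reads against 26 and 94 reads in WT and 3 to 7 reads in each AMPKα2 library.

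Among muscle fibre markers, the fast fibre sum was lower or higher in KO where Prkag3 was, after TMM scaling. By library totals, the fast fibre sum overlapped between KO and WT in AMPKα2, as Prkag3 did. The summed level of the 10 fast fibre markers was 40565 to 48128 CPM in AMPKα1 KO and 58829 to 85411 CPM in WT, and 122458 to 154766 CPM in AMPKα2 KO and 108905 to 116593 CPM in WT. The 7 slow fibre markers, among them the slow myosin Myh7, summed to 1226 to 2918 CPM in AMPKα1 KO and 886 to 1093 CPM in WT, and to 4284 to 4466 CPM in AMPKα2 KO and 1334 to 2832 CPM in WT. Thus the slow fibre sum was higher in KO in both models. edgeR called no single fast or slow marker in either model, while DESeq2 called Myh7 higher in KO in both (log2 fold change 1.57, adjusted p = 0.024, and 1.35, adjusted p = 0.029) and Mylpf, a fast myosin light chain, lower in AMPKα1 KO (-1.16, adjusted p = 0.083). The part of fibre makeup in the γ3 values was not tested. Of the lists for other cells, the 5 smooth muscle markers summed to 156 to 161 CPM in AMPKα1 KO and 65.2 to 109 CPM in WT, the same direction as Prkag2 and Camkk2. The 6 endothelial markers (122 to 135 CPM against 157 to 187), the 6 fibroblast markers (5914 to 6160 CPM against 6476 to 8469) and the 6 nerve and Schwann cell markers (276 to 337 CPM against 387 to 734) were lower in AMPKα1 KO. In AMPKα2 these 4 sums overlapped between KO and WT. The adipocyte, macrophage and erythroid sums overlapped between KO and WT in AMPKα1. Of single genes, 32.4% did not overlap in AMPKα1. edgeR called no marker of these lists within a model, but Myl9, a smooth muscle myosin light chain, passed in the interaction (log2 -3.77, adjusted p = 0.087) and was higher in AMPKα1 KO by DESeq2 (log2 fold change 3.89, adjusted p = 1.6e-05). Their part in the Prkag2 and Camkk2 values was not tested.

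At single APSs, 0 of 36 member APSs tested in AMPKα1 were called against 2 of 44024 (0.00454%), and 0 of 26 in AMPKα2 against 13 of 23218 (0.056%). The use of an APS relative to the other APSs of its gene was called at 0 of 34 member APSs in AMPKα1 against 2 of 33265 (0.00601%), and at 0 of 22 in AMPKα2 against 3 of 14687 (0.0204%). In simulated counts with planted 16-fold changes, the use test recovered 0 of 136 in AMPKα1 and 67 of 119 in AMPKα2. The level test of APSs recovered 36 of 200 in AMPKα1 and 197 of 200 in AMPKα2. The lack of calls for use in AMPKα1 therefore cannot show that use was unchanged. Changes were again planted only in APSs with many reads, more than most member APSs had in AMPKα2. At an unadjusted p under 0.05, 2 member APSs were found for level and 1 for use in AMPKα1, and none in AMPKα2, while DESeq2 called no member APS. The Prkab2 APS at the annotated end (chr3:97673814) had 66 and 11 reads in AMPKα1 KO and 110 and 140 in WT (log2 fold change -2.36, SE 1.02, unadjusted p = 0.034, adjusted p = 0.543 by edgeR), so the groups did not overlap. The Prkag3 APS 89 bases before the annotated end (chr1:74739011) had 0 and 0 reads in AMPKα1 KO and 5 and 70 in WT (adjusted p = 0.543), and 70 of those 75 reads came from 1 library.

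The reads of Prkaa2 were spread over its APSs in unlike ways in the libraries of the 2 models. The APS in coding exon 2 (chr4:105075473), upstream of the deleted stretch and followed by an A-rich stretch, held 52.5% and 43.7% of the gene's reads in AMPKα2 KO and 31.0% and 38.7% in AMPKα2 WT, but 0% to 6.87% in the 4 AMPKα1 libraries. The APS at the annotated 3′ end held at most 37.1% in AMPKα2 libraries and 48.2% to 82.8% in AMPKα1 libraries. The exon 2 share was higher in both AMPKα2 KO libraries than in both WT libraries, on 21 and 31 reads against 27 and 24. It was not called by the test of APS use (log2 fold change 0.29, unadjusted p = 0.614 by edgeR). A Cab39 APS in intron 3 (chr1:85835494) likewise had 7, 22, 8 and 17 reads in AMPKα2 KO 1, KO 2, WT 1 and WT 2 and none in the AMPKα1 libraries. Deletion, strain, age and library set cannot be told apart as the source of such differences between models.

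Genes that act on AMPK or under it were taken as lists. Of 11 further LKB1 partners, CaM kinases and upstream kinases, 10 were tested in each model and none was called by edgeR or DESeq2, with median log2 fold changes of -0.50 in AMPKα1 and 0.14 in AMPKα2. Of 13 AMPK-related kinases, most of which LKB1 also activates, 11 and 8 were tested and none was called by either tool (medians 0.62 and -0.05). Of 46 AMPK substrates, 45 and 39 were tested and none was called by edgeR (medians -0.13 and -0.11), while DESeq2 called 2 in AMPKα1, Pfkfb3 and Ampd1. The medians over all genes were -0.03 and -0.01.

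Of 16 genes for AMPK phosphatases and turnover, 15 and 13 were tested and 1, Ppp1r3c, was called, in AMPKα2, where 0.682% of all genes were called. Ppp1r3c, which targets protein phosphatase 1 to glycogen, had 92.9 and 84.7 CPM in AMPKα2 KO and 225 and 230 CPM in WT, so it fell in both KO mice (log2 fold change -1.37, SE 0.24, adjusted p = 0.041 by edgeR). The log2 fold change was -1.46 to -1.29 when any 1 of the 4 libraries was left out and -1.36 with all 8 libraries fitted together. The adjusted p was then 0.124 to 0.347 and 1, and it ran from 0.000155 to 1 over all alternatives. In AMPKα1 its levels were 38.6 and 122 CPM in KO and 90.6 and 26.6 CPM in WT.

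Among substrates with the lowest unadjusted p, Pfkfb3, which makes the glycolytic activator fructose 2,6-bisphosphate, had 44.4 and 28.6 CPM in AMPKα1 KO and 160 and 116 CPM in WT (log2 fold change -1.95, SE 0.46, adjusted p = 0.763 by edgeR). Ampd1, the muscle AMP deaminase, had 271 and 298 CPM against 884 and 577 CPM, and Mlycd, malonyl-CoA decarboxylase, 30.6 and 39.3 against 85.4 and 84.5 CPM, both with the same adjusted p. In AMPKα2, Txnip, an inhibitor of glucose uptake, had 128 and 154 CPM in KO against 233 and 231 CPM in WT (log2 fold change -0.73, adjusted p = 0.366), and Ppargc1a, the coactivator of mitochondrial biogenesis, had 105 and 69.7 against 46.5 and 47.7 CPM (log2 fold change 0.87, adjusted p = 0.408). None of these 5 genes passed edgeR's test within its model. KO and WT did not overlap for them, which was also so for 32.4% of all genes in AMPKα1 and 39.6% in AMPKα2, and they were picked for their low p-values. Over the alternatives, Pfkfb3 passed in AMPKα1 with DESeq2 (log2 fold change -1.90, adjusted p = 0.078) and with all 8 libraries fitted together (-1.91, adjusted p = 0.087), and Ampd1 with DESeq2 (-1.34, adjusted p = 0.080). Without the library labelled AMPKα1 KO 2, the edgeR values were -1.70 for Pfkfb3, -1.49 for Ampd1 and -1.54 for Mlycd. For Ppargc1a in AMPKα2, the log2 fold change was 0.25 (adjusted p = 0.905) when antisense APSs were left out.

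After the mean of each model was subtracted, the genes most like Prkab2 in log2 CPM over the 8 libraries, among 7503 genes with at least 200 reads, were Snhg4, Cwf19l1, Snhg12, Acsl3 and Prpf39 (Pearson r 0.981 to 0.990). Those most like Prkaa2 were Thap3, Usp42, Ciao1, Sfxn3 and Otud6b (0.977 to 0.992), and those most like Prkaa1 were Phf21a, Ganab, Tmed7, Ipo4 and Prss23 (0.959 to 0.985). These are descriptions over 8 libraries that share depth and scaling, and the Prkaa1 values follow mainly the reads of the library labelled AMPKα1 KO 2.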

How the data were processed

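The deposited table holds raw read counts per APS in 8 WTTS-seq libraries, without normalization. According to their methods, the authors removed low-quality reads, trimmed leading Ts, kept reads of at least 16 bases, mapped them to the mouse genome with TMAP, clustered read ends within 24 nt and assigned sites with Cuffcompare; the labels name GRCm38.p5. No site had fewer than 16 reads over the 8 libraries, and 1.88% to 17.9% of reads per library fell on sites without a gene.

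Here counts were summed per gene and tested with edgeR 4.0.16 in R 4.3.3 (TMM, robust quasi-likelihood, at least 16 reads over the 4 libraries of a model, genotype as factor). APS use was tested with diffSpliceDGE, and the interaction over all 8 libraries. Standard errors are approximate, the fold change over the square root of F. Locations and sequences came from GENCODE vM21 of GRCm38 (downstream: within 2 kb), and 1 sequence window is not reported here. Shares used Python 3.11.15 and scipy 1.17.1. Alternatives were DESeq2 1.42.0, other scalings, filters, site sets, a replicate block and leaving out each library.

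All members were named, as were pathway genes called or among the 3 lowest p-values per model, and the 5 genes most alike for Prkab2, Prkaa1 and Prkaa2. The members and lists were chosen with earlier results of these data known. KO and WT mice share replicate numbers but not animals.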

Additional observations from a re-analysis of the deposited data

Results flagged for a closer look

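Prkag2 and Camkk2 lay higher in KO than in WT in AMPKα1 and lower in AMPKα2, and Prkag3 the other way round, with every KO library on one side of every WT library in each model after TMM scaling. Such opposite patterns were found in 6.61% of the genes tested in both models, and by library totals Prkag3 overlapped in AMPKα2. The log2 KO effect in AMPKα2 minus that in AMPKα1 was -1.91 for Prkag2, -1.95 for Camkk2 and 1.13 for Prkag3. The interaction tests missed the adjusted threshold (adjusted p = 0.696, 0.757 and 0.728 by edgeR over all genes). In AMPKα2, the Prkag2 values rest on 5 to 15 reads per library and the Camkk2 values on 8 to 24. The Prkag3 difference was 0.53 without AMPKα1 WT 1 and 1.53 without AMPKα1 WT 2.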

How the results depend on the processing

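No member was called in any comparison under any alternative, except Prkab1 in the interaction without AMPKα1 KO replicate 2, so that 0 to 1 members were called there when 1 library was left out. The counts of calls over all features moved more. With DESeq2, 124 genes and 218 APSs were called in AMPKα1, 96 APSs in AMPKα2 and 180 genes in the interaction. With all 8 libraries fitted together, these were 83 genes and 432 APSs in AMPKα1 and 6 genes and 7 APSs in AMPKα2. With any read as the filter, they were 4 APSs in AMPKα1 and 397 genes and 557 APSs in AMPKα2. By library totals, they were 49 APSs in AMPKα1 and 185 genes and 45 APSs in AMPKα2. Leaving out 1 library, with its lone partner assumed to vary like the other groups, gave 0 to 170 APSs and 0 to 2 APSs in use in AMPKα1, 36 to 100 genes, 0 to 76 APSs and 0 to 26 APSs in use in AMPKα2, and 0 to 550 genes in the interaction. The cause of these shifts was not tested.

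The replicate numbers share no mice (correlation of deviations 0.060 in AMPKα1 and 0.0089 in AMPKα2). With a replicate block, 520 APSs were called in AMPKα2, use was called at 1 APS in AMPKα1 and 7 in AMPKα2, and the interaction called 0 genes (827 at an unadjusted p under 0.05). Under the block, the log2 fold change of Cab39 in AMPKα2 was -0.022 and the interaction of Prkaa1 was 0.030, both reversed.

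Signs turned for members near 0. Cab39 in AMPKα1 gave 0.017 with DESeq2, 0.013 with RLE size factors, 0.0087 with all 8 libraries, 0.047 with exon or downstream APSs and 0.19 by library totals, and its interaction -0.043 with both DESeq2 and RLE. Prkab2 in AMPKα2 gave 0.0090 with DESeq2, 0.010 with RLE, 0.013 with all 8 libraries, 0.019 with sense APSs and 0.039 with exon or downstream APSs. With exon or downstream APSs, AMPKα2 values were 0.079 for Prkaa2, 0.044 for Stk11 and -0.095 for Cab39, and Stk11 gave 0.022 with sense APSs. By library totals, which moved the median over all genes to 0.22 in AMPKα1 and -0.19 in AMPKα2, Prkaa2 in AMPKα1 gave 0.093, and Prkag1 and Cab39 in AMPKα2 gave -0.077 and -0.11.

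Leaving out 1 library, log2 fold changes in AMPKα1 ran from -0.71 to 0.24 for Prkaa2, -1.26 to 0.38 for Prkag1, -0.62 to 0.0041 for Stk11 -0.85 to 0.48 for Cab39 and -1.12 to -0.23 for Prkag3. In AMPKα2 they ran from -0.14 to 0.075 for Prkaa2, -0.038 to 0.029 for Prkab2, -0.22 to 0.44 for Prkag1, -0.26 to 0.16 for Stk11 and -0.33 to 0.27 for Cab39, and Prkab1, which could be fitted without 1 library only, gave 0.48. Interactions ran from -6.82 to 6.24 for Prkaa1, -0.44 to 0.69 for Prkaa2, -0.38 to 1.36 for Prkag1, -0.19 to 0.61 for Stk11 -0.63 to 0.87 for Cab39 and 0.53 to 1.53 for Prkag3.

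Shares moved with the APSs summed. With sense APSs, Prkaa2 took 100% in AMPKα2 KO and 98.6% in WT. With exon or downstream APSs, Prkaa2 took 100% in both, because Prkaa1 has no such APS. Prkag2 then took 33.3% in AMPKα1 KO and 2.02% in AMPKα2 KO, and Prkag3 63.3% in AMPKα1 WT and 72.5% in AMPKα2 KO. Without APSs before an A-rich stretch, a choice made after seeing the data, Prkaa2 took 71.5% in AMPKα2 KO, and Prkab2 62.0% and 73.2% in KO and WT of AMPKα1 and 91.0% in both AMPKα2 groups. No APS of Prkaa1, Prkab1, Prkag1 or Prkag2 could be searched for such a stretch, so none of theirs was left out. Prkag1 then took 38.9% in AMPKα1 WT and, in AMPKα2, 36.1% in KO and 40.8% in WT, Prkag2 47.3% in AMPKα1 KO, 4.02% in AMPKα2 KO and 6.42% in AMPKα2 WT, and Prkag3 27.9% and 42.4% in AMPKα1 KO and WT and 59.8% and 52.7% in AMPKα2 KO and WT.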
